A study of Drosophila melanogaster with 24 samples.

Results

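The c-Jun N-terminal kinase (JNK) stress pathway was followed through 10 genes: the ligand egr, the kinases Tak1, hep and bsk, the transcription factor subunits Jra and kay, and the targets puc, Mmp1, Ets21C and upd3. They were taken from the count tables by locus tag, as 10 of the 17545 genes counted, and were measured across 2 tissues, 2 stages and 2 larval diets.

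JNK signalling is a kinase cascade that cells use against wounds, infection, oxidative damage and cell loss, and it also closes epithelial sheets in the embryo. In Drosophila, the tumour necrosis factor Eiger (egr) can start the cascade through its receptors, the kinase kinase kinase Tak1 activates the kinase kinase Hemipterous (hep), and Hemipterous activates Basket (bsk), the fly JNK. Basket phosphorylates Jun (Jra), which pairs with Fos (kay) as AP-1, and AP-1 raises transcription of targets that include the phosphatase gene puc, whose product feeds back on Basket. These steps act mainly through phosphorylation, which RNA levels do not measure.

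The libraries came from indirect flight muscle (IFM), which drives the wing beat, and from the ventral nerve cord (VNC), which holds its motor neurons. MeHg groups were fed 5 µM methylmercury chloride from the first larval instar, and control groups were fed food with the solvent alone (0.01% DMSO). The 8 groups, with 3 libraries each, were MeHg adults and control adults at 15 days, and MeHg pupae and control pupae at 30 h after pupa formation, each with IFM and VNC. Every replicate pooled 50 animals of both sexes fixed in Methacarn, adults of both diets lived on food without MeHg from eclosion at about 96 h after pupa formation, and the strain is not given in the sources used here. Separate cultures are not described, so p-values measure the spread between these pooled samples.

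Depth, given per 1000000 counts, ran from 24.3 to 36.3 in adult IFM, 17.1 to 29.4 in pupal IFM, 35.1 to 39.3 in adult VNC and 12.4 to 33.1 in pupal VNC. MeHg pupal VNC replicate 2 was the shallowest library. Levels are given in CPM, counts per 1000000 counts of the library after TMM scaling over the 24 libraries, and differences as log2 fold changes ± SE from edgeR's quasi-likelihood test. A gene was called at a Benjamini-Hochberg adjusted p under 0.05 over all genes tested. Muscle and neuron markers matched the tissue labels. The sum of 6 flight muscle markers was 10835 to 40595 CPM in the 12 IFM libraries and 46.0 to 457 CPM in the 12 VNC libraries. That of 6 neuron markers was 86.5 to 184 CPM in IFM and 3613 to 10005 CPM in VNC. Markers of other tissues were present too. Fat body markers (6 genes) summed to 9635 to 22208 CPM in pupal IFM and 10324 to 21830 CPM in adult IFM. In VNC they summed to 10831 to 21057 CPM in pupae and 3224 to 4466 CPM in adults. Gut markers (3 genes) reached 8229.5 CPM in adult IFM. In bulk tissue, fewer cells of a type and less RNA per cell cannot be told apart.

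Larval MeHg was followed by changes of 4 of the 10 genes in flight muscle of 15-day adults. The targets Ets21C and Mmp1 rose 3.57-fold and 2.53-fold, while Tak1 and kay fell to 0.575 and 0.648 of the control level. The other 6 genes, among them the feedback phosphatase puc and the JNK gene bsk, were not called. Of all 11347 genes tested in this comparison 7.6% were called, 3.67% higher and 3.93% lower. The 10 genes were chosen with earlier results of these data known, so this share is a background and no test of the set. At an unadjusted p under 0.05 there were 6 of the 10 genes, against 24.1% of all genes, and 6 of the 10 had separate group ranges, against 26.8% of all genes. The median log2 fold change over the 10 genes was -0.03, against -0.01 over all genes, with 5 of 10 above 0, so the 4 called genes split evenly in direction.

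**Figure D1:**
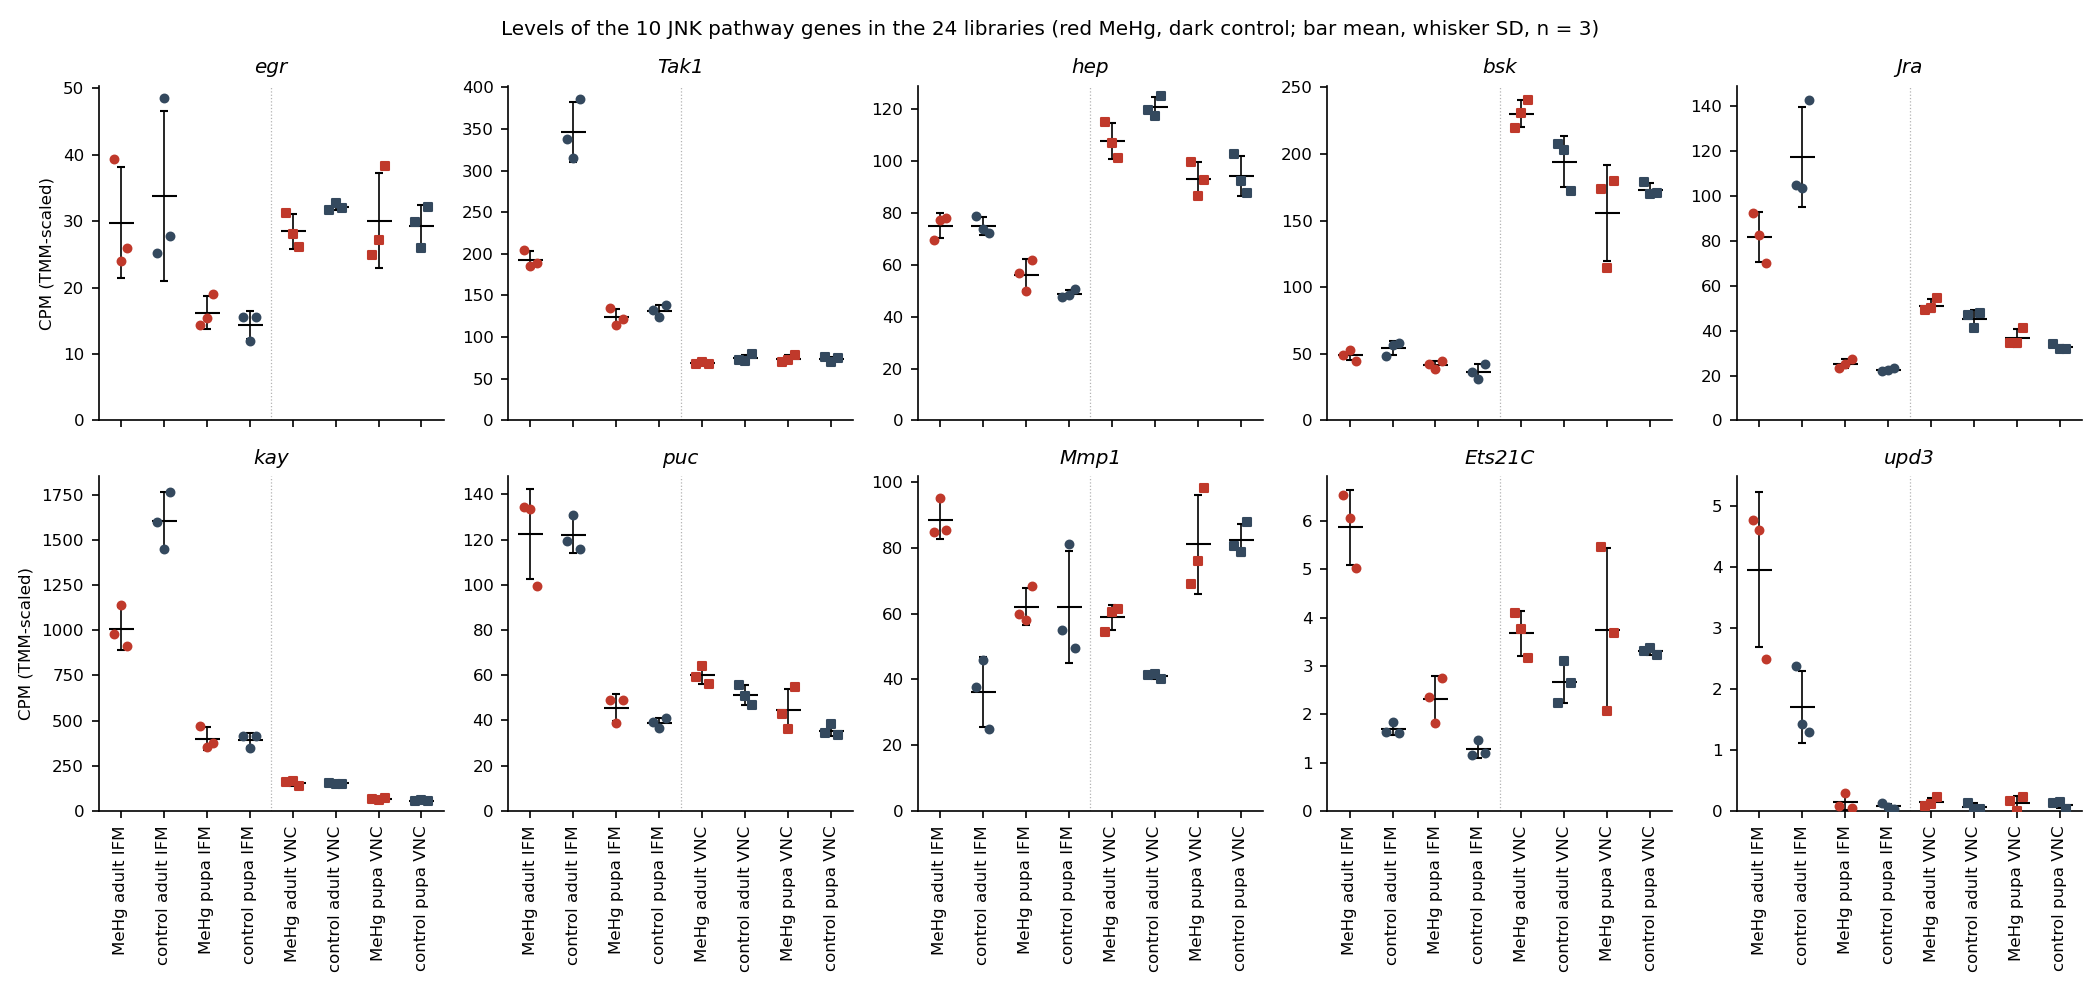
Level of each gene in CPM (linear axis from 0) in every library, with adult groups left of pupal groups and IFM left of VNC, MeHg in red and control in dark points; bars are means and whiskers SD of 3 libraries. In adult IFM the MeHg points of Ets21C and Mmp1 lie above all control points, and those of Tak1, kay and Jra below them.

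Ets21C encodes an ETS-family transcription factor that JNK signalling induces in stressed and regenerating fly tissue. It spans 544925 to 552923 on the minus strand of 2L (Release 6, as are all positions here). In adult IFM its level was 6.53, 6.07 and 5.02 CPM in the MeHg libraries, against 1.62, 1.84 and 1.62 CPM in the control libraries. The lowest MeHg library stood well above the highest control library. The rise was 1.84 ± 0.22 on the log2 scale (edgeR, adjusted p 0.0037), it rests on 137 to 170 counts per MeHg library and 44 to 47 per control library, and it was called under all 16 alternative settings (adjusted p 5.94e-11 to 0.0452). Exons of nAChRbeta3, a nicotinic acetylcholine receptor gene on the opposite strand, cover 28.3% of the exonic length of Ets21C, and whether counting used the strand is not given in the sources used here. nAChRbeta3 itself had 33.7, 32.2 and 35.3 CPM in the MeHg libraries and 41.4, 48.8 and 64.4 CPM in the control libraries, which is the opposite order. Its part in the Ets21C value was not tested.

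Mmp1 encodes a secreted matrix metalloproteinase that cuts extracellular matrix during tissue remodelling and wound healing (2R, 24671294 to 24688184, minus strand). Adult IFM held 84.9, 95.3 and 85.5 CPM of it in the MeHg libraries, against 37.6, 46.0 and 25.0 CPM in the control libraries. The groups did not overlap, and the MeHg libraries lay closer together than the control libraries. Its log2 fold change was 1.34 ± 0.24 (edgeR, adjusted p 0.012), and the adjusted p was 0.0731 with the tag in the sample title as a term (called in 14 of 16 alternative settings), since 1 of the 3 adult MeHg replicates has a tag of its own. An opposite-strand gene, Pof, covers 5.87% of its exonic length, and Pof had 13.5 to 14.2 CPM in the MeHg libraries and 13.2 to 18.5 CPM in the control libraries. The part of Pof in the Mmp1 value was not tested.

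upd3, the third of the targets measured in this muscle, encodes a cytokine that activates JAK/STAT signalling and is induced by damage (X, 18277233 to 18284596, plus strand). It had 4.77, 4.60 and 2.49 CPM in MeHg adult IFM and 2.38, 1.42 and 1.30 CPM in control adult IFM. Each MeHg library stood above all control libraries, but the lowest MeHg value was close to the highest control value. The log2 fold change of 1.25 ± 0.47 was not called (edgeR, p 0.023, adjusted p 0.133), on 68 to 129 counts per MeHg library and 34 to 69 per control library.

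puc (3R, 8105332 to 8122294, plus strand), a common reporter gene of JNK activity in flies, gave 134, 134 and 99.6 CPM in MeHg adult IFM and 119, 131 and 116 CPM in control adult IFM. Replicate 4 of the MeHg group was the lowest of the 6 libraries and the other two MeHg libraries were the highest. Its log2 fold change was 0.05 ± 0.11 (edgeR, adjusted p 0.842), a fold of 1.03.

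Among the kinases the called gene was Tak1 (X, 20515908 to 20524928, minus strand), which also carries the immune signal of the Imd pathway to JNK and to the NF-kappa-B factor Relish. Its level was 204, 186 and 190 CPM in MeHg adult IFM, against 338, 315 and 386 CPM in control adult IFM. The ranges lay far apart and each group was narrow. It fell by 0.80 ± 0.09 on the log2 scale (log2 fold change -0.80; edgeR, adjusted p 0.00349) and was called under all 16 alternative settings. hep (X, 13079205 to 13090434, minus strand) had 69.5, 77.3 and 78.2 CPM in the MeHg libraries and 78.8, 73.6 and 72.2 CPM in the control libraries, with overlapping ranges (log2 0.05 ± 0.09, adjusted p 0.793). bsk (2L, 10247502 to 10250501, minus strand) had 49.4, 52.7 and 44.9 CPM in the MeHg libraries and 48.3, 56.8 and 57.8 CPM in the control libraries, also overlapping (log2 -0.10 ± 0.10, adjusted p 0.588). Per exonic kilobase, Tak1 stood at 3.79 to 4.63 times the level of hep in the MeHg libraries and at 6.75 to 8.42 times in the control libraries.

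Both AP-1 subunit genes had lower levels in each MeHg adult IFM library than in any control library, and 1 of them was called. kay, the fly Fos gene (3R, 29765995 to 29794113, plus strand), had 978, 1139 and 911 CPM in the MeHg libraries, against 1599, 1448 and 1766 CPM in the control libraries. All 3 MeHg libraries lay below all control libraries. It fell by 0.63 ± 0.12 on the log2 scale (log2 fold change -0.63; edgeR, adjusted p 0.0155). The call was lost without control replicate 3, MeHg replicate 1 or MeHg replicate 4 (adjusted p 0.0567, 0.0504 and 0.0749), with the title tag as a term (0.0887) and with the 6 libraries alone (0.065), and kay was called in 10 of 16 alternative settings. Jra, the fly Jun gene (2R, 10096480 to 10098556, plus strand), had 92.2, 82.7 and 70.0 CPM in the MeHg libraries and 105, 104 and 143 CPM in the control libraries. The groups did not overlap, yet its log2 fold change of -0.48 ± 0.14 missed the threshold (edgeR, adjusted p 0.0563) and was called in 6 of 16 alternative settings. The exonic overlap of Jra with RpLP0-like on the other strand is 2.38% of its length. The ratio of kay to Jra per exonic kilobase was 2.24 to 2.90 in the MeHg libraries and 2.60 to 3.21 in the control libraries, overlapping.

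The ligand gene egr (2R, 10078366 to 10084210, plus strand) varied between libraries of both diets in adult IFM. Its level was 39.3, 23.99 and 26.0 CPM in the MeHg libraries and 25.2, 48.5 and 27.7 CPM in the control libraries. One library of each group stood above the rest, replicate 1 of MeHg and replicate 2 of control, and the same libraries had the highest gut marker sum of their group. The log2 fold change was -0.14 ± 0.25 (edgeR, adjusted p 0.801).

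**Figure D2:**
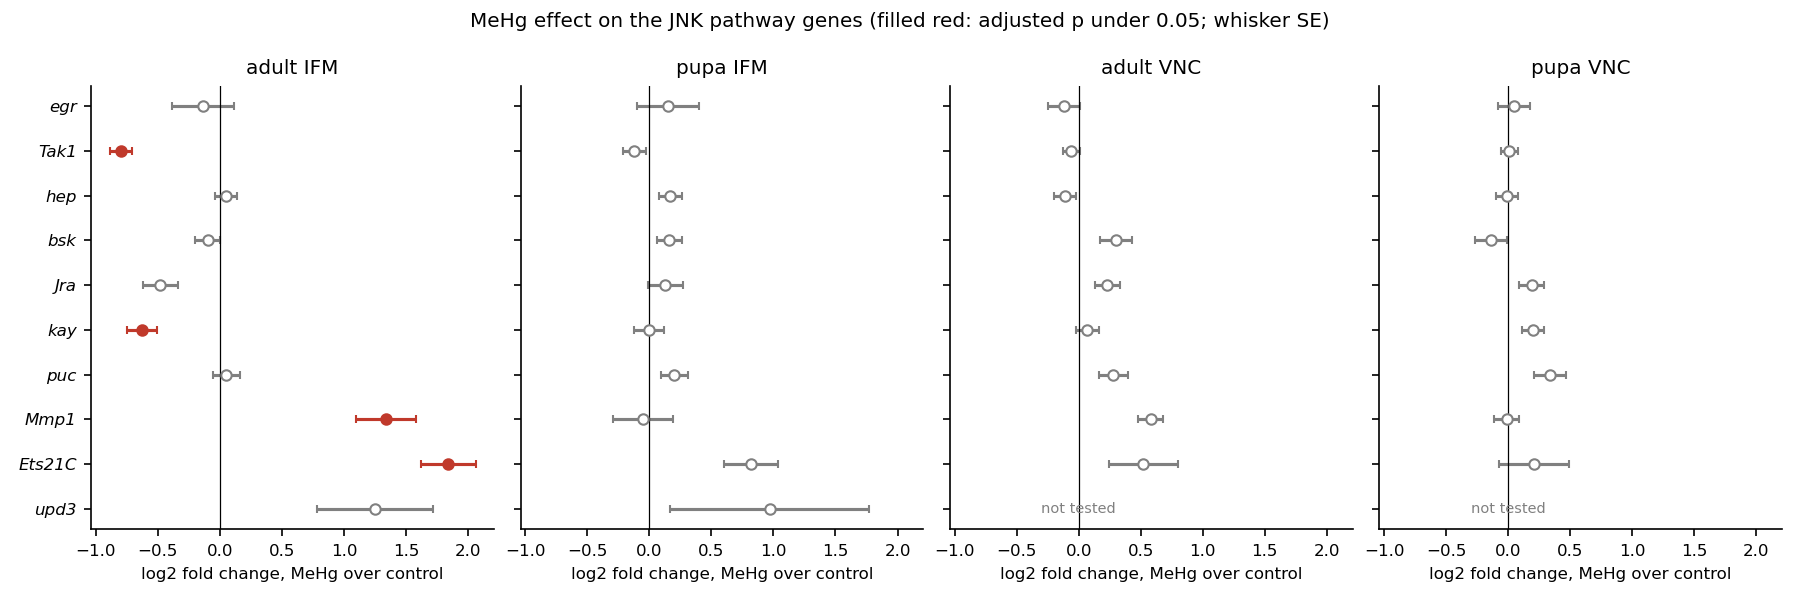
Log2 fold change of MeHg over control ± SE for the 10 genes in adult IFM, pupal IFM, adult VNC and pupal VNC, with filled red points for adjusted p under 0.05. The 4 filled points are Tak1, kay, Mmp1 and Ets21C in adult IFM, and upd3 was not tested in VNC.

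Several lists of markers of other tissues moved with the MeHg contrast in adult IFM. The sum of 3 digestive protease genes of the gut was 8229.5, 4314 and 5492 CPM in the MeHg libraries and 3225, 6139.9 and 413 CPM in the control libraries. All 3 of these genes were above 0 in log2 fold change, edgeR and DESeq2 called 0 of them (0 at an unadjusted p under 0.05 by edgeR), as did limma voom, and the group ranges overlapped, with control replicate 3 lowest. CapaR, a neuropeptide receptor gene of the Malpighian tubule, had 7.32, 7.14 and 9.05 CPM in the MeHg libraries and 0.484, 0 and 0.0352 CPM in the control libraries. Uro, the urate oxidase gene of the same organ, chosen after its values were seen, had 25.0, 50.2 and 99.9 CPM in the MeHg libraries and 6.32, 0.960 and 0.0352 CPM in the control libraries. All 3 MeHg libraries stood above all control libraries for both tubule genes. Within the MeHg group, Ets21C was highest in replicate 1, which had the lowest Uro and the highest gut marker sum, while CapaR was lowest in replicate 3. Among controls, Ets21C was highest in replicate 2, which had the highest gut marker sum. It was 1.62 CPM in both control libraries with the most and the least Uro. These orders rest on 3 libraries per group, and the tubule genes Uro and CapaR did not share the same order. The sum of 7 haemocyte markers was 1095, 941 and 1003 CPM in the MeHg libraries and 1079.7, 1353 and 1824 CPM in the control libraries, with 7 of 7 below 0 and Pxn, a peroxidasin gene, called lower (log2 -0.58 ± 0.15, adjusted p 0.0405). Of 6 flight muscle markers 2 were above 0 (median -0.11), and Act88F, the flight muscle actin gene, was called lower (log2 -1.28 ± 0.20, edgeR adjusted p 0.00776). Of 6 fat body markers 2 were above 0, with sums of 10324 to 16365 CPM in the MeHg libraries and 14305 to 21830 CPM in the control libraries, and Lsp1alpha, a larval serum protein gene, was called higher (log2 2.79 ± 0.49, adjusted p 0.0133). The sum of 5 glia markers was 919 to 1033 CPM in the MeHg libraries and 1159 to 1321 CPM in the control libraries, that of 4 tendon and epidermis markers was 309 to 338 CPM in MeHg and 346 to 380 CPM in control libraries, and that of 4 trachea markers was 50.8 to 62.9 CPM in MeHg and 40.9 to 50.5 CPM in control libraries. These 3 sums did not overlap between the diets, glia and tendon being lower and trachea higher with MeHg. By gene, 2 of 5 glia, 0 of 4 tendon and 3 of 4 trachea markers were above 0 in log2 fold change. In each of these 3 lists edgeR called 0 genes. The share of these other tissues in the changes of Ets21C, Mmp1, upd3, Tak1 and kay was not tested.

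In pupal IFM, while the muscles were forming, none of the 10 genes was called by edgeR, where 3.01% of 11347 genes were called. At an unadjusted p under 0.05 there was 1 gene, against 19.9% of all genes, DESeq2 called 1 and limma voom called 0. That gene was Ets21C, with 2.37, 1.81 and 2.75 CPM in the MeHg libraries against 1.15, 1.46 and 1.20 CPM in the control libraries. Its group ranges were separate, as they were for 23.3% of all genes, on 37 to 63 counts per MeHg library and 19 to 33 per control library. Its log2 fold change was 0.82 ± 0.22 (edgeR, p 0.00366, adjusted p 0.0757; DESeq2 adjusted p 0.0422). nAChRbeta3 on the opposite strand was here also higher with MeHg, at 3.11, 3.48 and 5.20 CPM against 1.69, 2.53 and 2.51 CPM in control, and its part in the Ets21C value was not tested. Gut markers were close to 0 at this stage, with sums of 0 to 1.99 CPM in the MeHg libraries and 0 to 2.02 CPM in the control libraries. Other marker lists did move in pupal IFM. Of 7 haemocyte markers 6 had log2 fold changes above 0 (median 0.52), with sums of 188 to 259 CPM in the MeHg libraries and 143 to 221 CPM in the control libraries, and Hml, a hemolectin gene, was called higher (log2 0.87 ± 0.20, edgeR adjusted p 0.0383). Of 6 flight muscle markers 1 was above 0 (median -0.25), with sums of 31127 to 40595 CPM in the MeHg libraries and 35985 to 39701 CPM in the control libraries, and fln, the flightin gene, was called lower (log2 -1.09 ± 0.23, adjusted p 0.0289). All 4 trachea markers and all 4 tendon and epidermis markers were above 0, with trachea sums of 44.9 to 52.5 CPM in the MeHg libraries and 37.5 to 42.7 CPM in the control libraries, and tendon sums of 516 to 586 CPM in the MeHg libraries and 389 to 532 CPM in the control libraries. These values move with Ets21C and with the list genes Traf4, rpr, hid and dome described for this tissue, and their part in those results was not tested. Log2 fold changes of this comparison also rose with exonic length over 8295 genes (Spearman rho 0.409, across genes that are not independent replicates). Ets21C has 5407 exonic bases. Over 16 alternative settings, removal of the length trend among them, its log2 fold change was 0.68 to 0.98, called in 1. The part of length in the list genes was not tested.

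The remaining 9 genes of pupal IFM overlapped between the diets. Mmp1, at 62.1 ± 5.63 CPM (SD, n = 3) in the MeHg group and 61.9 ± 17.0 CPM in the control group, had a log2 fold change of -0.05 ± 0.24. kay averaged 400 ± 62.0 CPM in MeHg and 391 ± 39.02 CPM in control libraries (log2 0.00 ± 0.12). Tak1 averaged 124 ± 10.1 CPM in MeHg and 132 ± 6.89 CPM in control libraries (log2 -0.12 ± 0.09). hep, bsk, Jra, puc and egr had log2 fold changes of 0.13 to 0.20 with adjusted p of 0.311 to 0.814. upd3 had 1 to 6 counts per MeHg library and 1 or 2 per control library, too few for a fold.

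In adult VNC no gene of 9 tested was called by edgeR, against 0.0674% of 11870 genes, and 4 genes were at an unadjusted p under 0.05, against 13.6% of all genes. DESeq2 and limma voom each called 1, Mmp1. Its level was 54.4, 60.6 and 61.5 CPM in the MeHg libraries and 41.3, 41.7 and 40.0 CPM in the control libraries. The lowest MeHg library stood well above the controls, which lay close together. The log2 fold change was 0.58 ± 0.10 (edgeR, p 0.000107, adjusted p 0.0846; DESeq2 adjusted p 0.00042, voom adjusted p 0.0211). The other 3 were Jra (log2 0.23 ± 0.10, adjusted p 0.359), puc (log2 0.28 ± 0.12, adjusted p 0.366) and bsk (log2 0.30 ± 0.13, adjusted p 0.361). Ets21C had 4.09, 3.77 and 3.16 CPM in the MeHg libraries and 2.24, 3.10 and 2.66 CPM in the control libraries, ranges that were separate by a small gap (log2 0.52 ± 0.28, adjusted p 0.413). In this comparison 8 of the 10 genes had separate ranges, 5 higher and 3 lower with MeHg, against 26.3% of all genes in either direction. The 3 lower genes were Tak1, hep and egr, with small gaps. Their highest MeHg and lowest control levels were 70.5 and 71.4, 114.9 and 117.2, and 31.2 and 31.7 CPM. The ranges came from CPM scaled over both tissues, while the test used the VNC libraries alone. Whether these gaps remain under the scaling of the test was not tested. The median log2 fold change over the 9 genes was 0.23, against 0.05 over all genes, and it is not read further.

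In pupal VNC no gene of 9 was called by edgeR, where 0.531% of 11870 genes were called. At an unadjusted p under 0.05 there were 2 genes, against 8.8% of all genes, and DESeq2 and limma voom each called 0. The pair was puc, at 42.8, 36.4 and 54.8 CPM in MeHg and 34.3, 38.3 and 33.7 CPM in control libraries (log2 0.34 ± 0.13, edgeR adjusted p 0.412), and kay, at 64.9, 57.5 and 72.0 CPM in MeHg and 55.6, 57.8 and 56.8 CPM in control libraries (log2 0.20 ± 0.09, adjusted p 0.565). Both overlapped between the diets. Ets21C spread from 2.08 to 5.46 CPM over the MeHg libraries, and bsk from 114.5 to 179.8 CPM, with the lowest value of each in replicate 2, the library with the fewest counts. In the control libraries Ets21C ran from 3.22 to 3.38 CPM and bsk from 170.2 to 179 CPM. upd3 stayed at 0 to 9 counts in the 12 VNC libraries and was removed by the low-count filter.

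Whether MeHg acted differently in both tissues was tested as an interaction, the MeHg effect in IFM minus that in VNC. In adults 3 of the 10 genes were called, each with the lower effect in IFM, against 3.38% of 12631 genes in either direction and 2.05% in this one. They were Tak1 (log2 -0.73 ± 0.12, edgeR adjusted p 0.00314), Jra (log2 -0.70 ± 0.17, adjusted p 0.0313) and kay (log2 -0.68 ± 0.17, adjusted p 0.0333). In adult VNC these genes had log2 fold changes of -0.06 for Tak1, 0.23 for Jra and 0.07 for kay. The interaction of Ets21C was 1.33 ± 0.37 and missed the threshold (adjusted p 0.051), and that of Mmp1 was 0.77 ± 0.26 (adjusted p 0.107). Leaving out 1 library in turn kept Tak1 called in every case, while kay was lost in 5 of 12 cases (adjusted p up to 0.113, without MeHg IFM replicate 4) and Jra in 4 of 12 (adjusted p up to 0.101, without the same library). In pupae 0 of 10 were called (background 0.245%), with 0 at an unadjusted p under 0.05 (11.2% of all genes) and 0 by DESeq2 or limma voom.

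The same question between stages, the MeHg effect in adults minus that in pupae, gave 1 called gene of 10 in IFM, against 2.69% of 11347 genes in either direction and 1.17% called lower. It was Tak1 (log2 -0.67 ± 0.13, edgeR adjusted p 0.028), and the call held in 10 of 21 alternative settings (adjusted p 0.00021 to 0.126). Mmp1 had 1.39 ± 0.34 (adjusted p 0.0582), Ets21C 1.02 ± 0.31 (adjusted p 0.105), kay -0.63 ± 0.17 (adjusted p 0.0874) and Jra -0.61 ± 0.19 (adjusted p 0.12). In VNC 0 of 9 were called by edgeR, against 0.00842% of 11870 genes, with 2 at an unadjusted p under 0.05 (13.3% of all genes), and DESeq2 called 1 while limma voom called 0.

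In control IFM 9 of the 10 genes differed between adults and pupae, where 74.4% of 11347 genes were called, so a high count is the background here. Of the 10 genes 8 were called higher in adults, upd3 among them, against 37.7% of all genes. After upd3, the largest log2 difference of the 10 was that of Jra, which had 105, 104 and 143 CPM in adult and 22.0, 22.5 and 23.3 CPM in pupal controls. The adult libraries stood far above the pupal ones, and the log2 fold change was 2.40 ± 0.14 (edgeR, adjusted p 3.59e-08). kay had 1605 ± 159 CPM in adult and 391 ± 39.02 CPM in pupal controls (SD, n = 3 each; log2 2.06 ± 0.13, adjusted p 4.81e-08). puc had 122 ± 7.98 CPM in adult and 38.9 ± 2.185 CPM in pupal controls (log2 1.68 ± 0.11, adjusted p 9.83e-08).

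The kinases and the ligand were also higher in adult than in pupal control IFM. Tak1 stood at 346 ± 35.8 CPM in adults and 132 ± 6.89 CPM in pupae (log2 1.42 ± 0.09, edgeR adjusted p 8.39e-08). egr was 1.26 ± 0.25 higher on the log2 scale, hep 0.64 ± 0.09 and bsk 0.60 ± 0.10, with adjusted p of 0.0002 or less except for egr (0.000844). upd3 went with them, at 34 to 69 counts per adult library and 1 or 2 per pupal library. The summed counts of 140 and 4 give an adult level 26.6 times that of pupae, with an exact 95% interval of 10.2 to 98.9 that covers counting error only (edgeR adjusted p 6.28e-05). upd3 passed the low-count filter only through adult IFM, so its call is not read as support. Mmp1 was the gene that fell, to 37.6, 46.0 and 25.0 CPM in adults, against 54.9, 81.3 and 49.4 CPM in pupae (log2 -0.77 ± 0.24, adjusted p 0.0131). Its call was lost without adult replicate 3 or pupal replicate 2 (adjusted p 0.0811 and 0.0575), with the title tag as a term (0.0746) and with the 6 libraries alone (0.0685). No title tag was shared by pupal and adult libraries, so stage and tag cannot be told apart. Ets21C was not called (log2 0.43 ± 0.22, adjusted p 0.101). The sum of the 3 gut protease genes moved with the stage, at 413 to 6139.9 CPM in adult and 0 to 2.02 CPM in pupal control libraries. So did that of 7 haemocyte markers, at 1079.7 to 1824 CPM in adult and 143 to 221 CPM in pupal control libraries. The part of both in the upd3 difference was not tested.

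In control VNC 5 of 9 genes tested differed between the stages, where 64.3% of 11870 genes were called. kay was higher in adults, at 151 ± 3.21 CPM against 56.7 ± 1.09 CPM in pupae (log2 1.37 ± 0.09, edgeR adjusted p 1.08e-07). puc (log2 0.48 ± 0.13), Jra (log2 0.44 ± 0.10) and hep (log2 0.32 ± 0.09) were higher too, with adjusted p of 0.00171 to 0.00749. Mmp1 was lower in adults, with 41.3, 41.7 and 40.0 CPM against 80.6, 78.8 and 87.9 CPM in pupae (log2 -1.05 ± 0.10, adjusted p 2.25e-06). These groups were far apart and narrow. Tak1 held 74.4 ± 4.47 CPM in adult and 73.6 ± 2.89 CPM in pupal VNC, a log2 fold change of -0.02 ± 0.07.

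The stage difference was larger in IFM than in VNC for 6 of the 10 genes, by the test of the difference itself (53.0% of 12631 genes called in either direction and 26.4% higher). The differences were 1.90 ± 0.17 for Jra, 1.38 ± 0.12 for Tak1, 1.12 ± 0.19 for puc, 1.10 ± 0.32 for egr, 0.62 ± 0.17 for kay and 5.31 ± 1.21 for upd3 on the log2 scale (edgeR, adjusted p 8.21e-09 to 0.00624). upd3 had 0 to 9 counts per library outside adult IFM. It passed the low-count filter only through adult IFM, the group where it is high, so its call is not read as support. No gene was called in the other direction.

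**Figure D3:**
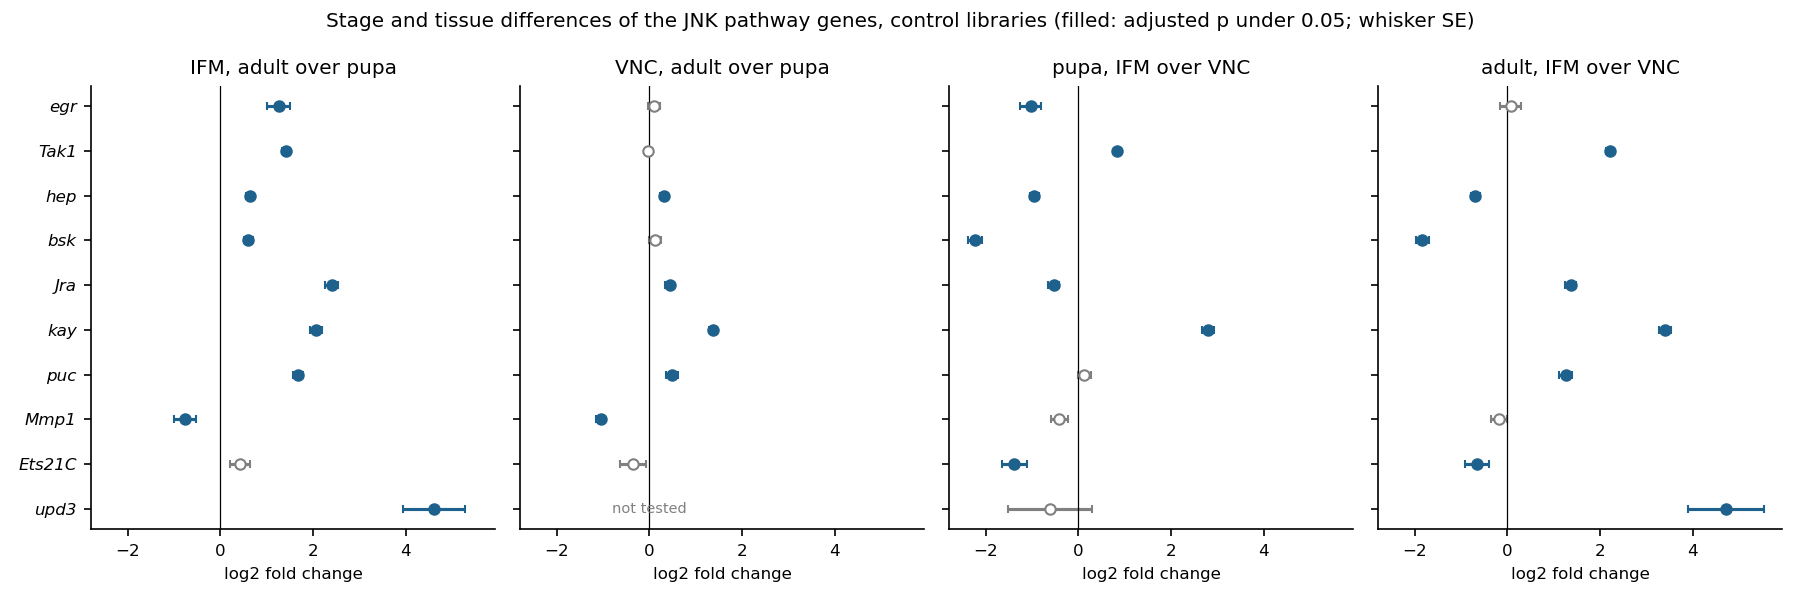
Log2 fold change ± SE in control libraries, for adult over pupa in each tissue and for IFM over VNC at each stage, with filled points for adjusted p under 0.05. Tak1 and kay lie right of 0 in both tissue panels and bsk and hep left of 0, and Mmp1 lies left of 0 in both stage panels. The length trend was not removed here, and no direction between tissues is given for hep or Ets21C.

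Between tissues, the cascade was not uniformly higher or lower. In control adults 8 of the 10 genes were called, where 73.0% of 12631 genes were. Called higher in IFM were 5 of the 10, upd3 among them, against 35.0% of all genes. In control pupae 7 of 10 were called (60.0% of all genes), and 2 of the 10 were called higher in IFM (25.9% of all genes). Of the genes called at both stages kay had the largest log2 difference, at 1605 ± 159 CPM in IFM and 151 ± 3.21 CPM in VNC of adults (log2 3.41 ± 0.13, edgeR adjusted p 7.18e-15), and at 391 ± 39.02 CPM in IFM and 56.7 ± 1.09 CPM in VNC of pupae (log2 2.79 ± 0.13, adjusted p 1.3e-13). Tak1 was higher in IFM by 2.22 ± 0.09 in adults and 0.84 ± 0.08 in pupae. bsk had the opposite order, at 48.3, 56.8 and 57.8 CPM in IFM against 208, 203 and 172 CPM in VNC of adults, with widely separate ranges (log2 -1.84 ± 0.14, adjusted p 4.13e-10), and pupae gave -2.24 ± 0.15.

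Jra differed in direction between the stages, at 1.37 ± 0.12 in adults and -0.53 ± 0.12 in pupae (edgeR adjusted p 3.3e-09 and 0.000908). puc was higher in IFM of adults (log2 1.26 ± 0.14, adjusted p 7e-08) and not called in pupae (log2 0.13 ± 0.14). egr was lower in IFM of pupae (log2 -1.03 ± 0.23, adjusted p 0.000525) and not called in adults (log2 0.07 ± 0.22). upd3 in adults had summed counts of 140 in IFM and 7 in VNC, 28.4 times the level in IFM with an exact 95% interval of 13.4 to 72.0 (edgeR adjusted p 3.53e-05). Here too upd3 was tested only because of its counts in adult IFM, and its call is not read as support. Several marker sums of control adults differed as well. That of 3 gut genes was 413 to 6139.9 CPM in IFM and 198 to 470.5 CPM in VNC, with overlap. For 7 haemocyte markers the sums were 1079.7 to 1824 CPM in IFM and 466 to 471 CPM in VNC. For 6 fat body markers they were 14305 to 21830 CPM and 3224 to 4197 CPM. The part of these tissues in the upd3 difference was not tested.

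hep was lower in IFM by -0.69 ± 0.09 in adults and -0.95 ± 0.09 in pupae on the log2 scale, and Ets21C by -0.65 ± 0.26 and -1.38 ± 0.27. Both are long transcripts, with 6215 and 5407 exonic bases, and log2 fold changes of the tissue comparisons fell with exonic length over 8336 genes (Spearman rho -0.364 in adults and -0.306 in pupae, across genes that are not independent replicates). With each library's length trend removed, hep in adults became 0.37 (adjusted p 0.000126) and Ets21C in adults 0.28 (adjusted p 0.309), and in pupae hep became -0.07 and Ets21C -0.57 (adjusted p 0.463 and 0.0633), so no direction between tissues is given for either gene. RLE scaling moved the median of all genes by 0.129 in adults and 0.147 in pupae and left the directions of kay, Tak1, bsk and Jra as given.

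Over the 8 groups, each gene had its own order of levels. kay, Tak1 and Jra were highest in control adult IFM, followed by MeHg adult IFM, and the ranges of these groups were separate from each other and from all lower groups. Tak1 came next in pupal IFM of either diet, which overlapped, and the means of the 4 VNC groups lay at 68.6 to 74.4 CPM, each overlapping the next in order. Ets21C, Mmp1 and upd3 were highest in MeHg adult IFM. For Mmp1 that group, at 88.6 ± 5.85 CPM, overlapped the pupal VNC groups at 81.1 ± 15.2 (MeHg) and 82.4 ± 4.80 CPM (control), and control adult IFM was lowest, overlapping control adult VNC. For Ets21C the MeHg adult IFM range overlapped that of MeHg pupal VNC, and control pupal IFM was lowest at 1.27 ± 0.167 CPM. bsk and hep were highest in adult VNC and lowest in control pupal IFM. These orders are in CPM with no length trend removed, and no direction between tissues is given for hep or Ets21C.

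Per exonic kilobase, which allows levels of different genes to be compared, kay led in control adult IFM with 206 ± 20.4 CPM per kb, followed by Tak1 with 87.9 ± 9.08, Jra with 71.4 ± 13.6, puc with 38.5 ± 2.52 and bsk with 26.9 ± 2.57. egr (15.6 ± 5.91), hep (12.1 ± 0.563) and Mmp1 (7.48 ± 2.18) were lower, and upd3 (0.766 ± 0.268) and Ets21C (0.313 ± 0.0230) were lowest, all in CPM per kb. In control adult VNC bsk led instead, with 96.2 ± 9.56 CPM per kb, and kay had 19.4 ± 0.412. The ratio of kay to Jra per kb was 2.24 to 4.27 over the 12 IFM libraries and 0.346 to 0.763 over the 12 VNC libraries. By this measure kay was above Jra in every IFM library and below it in every VNC library. The order in VNC rests on the merged exonic lengths, 7789 bases for kay and 1642 for Jra. In CPM, kay was above Jra in control adult VNC too (151 and 45.3 CPM). Lengths of the expressed transcripts were not measured. The ratio of bsk to hep per kb was 1.77 to 2.59 in IFM and 4.08 to 7.30 in VNC.

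Other genes of the pathway were read from lists, which were also chosen with earlier results of these data known. Of 21 genes upstream of or beside the cascade, 1 was called in adult IFM under MeHg, where 7.6% of all genes were called: Cdc42, a small GTPase that can activate JNK, rose (log2 0.59 ± 0.15, edgeR adjusted p 0.0359), and the list's median log2 fold change was 0.03, against -0.01 over all genes. In pupal IFM 1 of the 21 was called, against 3.01% of all genes. It was Traf4, an adaptor between receptor and kinases, which had 51.2, 44.9 and 74.0 CPM in the MeHg libraries and 31.8, 17.4 and 27.3 CPM in the control libraries. Those ranges were separate (log2 1.12 ± 0.22, adjusted p 0.0206). In VNC edgeR, DESeq2 and limma voom called 0 of the 21 at either stage, with 1 in adults and 1 in pupae at an unadjusted p under 0.05 by edgeR.

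Among 20 genes of JNK output and wound response, adult IFM under MeHg had 1 higher and 2 lower, against 3.67% of all genes higher and 3.93% lower. upd2, a second cytokine of the JAK/STAT pathway, had 23, 20 and 8 counts in the MeHg libraries (1.07, 0.714 and 0.293 CPM) and 5, 2 and 3 counts in the control libraries (0.173, 0.0835 and 0.105 CPM). It rose by 2.48 ± 0.68 on the log2 scale (edgeR, adjusted p 0.0495), just past the threshold on few counts. The cell death activator rpr (log2 -0.70 ± 0.16, adjusted p 0.0258) and the stress factor Xrp1 (log2 -0.43 ± 0.09, adjusted p 0.0205) fell. In pupal IFM rpr rose (log2 0.64 ± 0.15, adjusted p 0.0492), and the difference between the stages was called for rpr (log2 -1.34 ± 0.22, adjusted p 0.0199) and Xrp1 (log2 -0.61 ± 0.13, adjusted p 0.0367). hid, another activator of cell death, rose in pupal IFM too (log2 0.69 ± 0.16, adjusted p 0.0413).

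The JAK/STAT list of 8 genes, the pathway that upd2 and upd3 feed, had 2 genes higher in MeHg adult IFM, where 3.67% of all genes were called higher, and 0 lower. Socs36E, a feedback inhibitor and target of the pathway, had 61.6, 44.6 and 44.4 CPM in the MeHg libraries and 22.5, 33.7 and 22.3 CPM in the control libraries. The ranges were separate (log2 0.99 ± 0.17, edgeR adjusted p 0.00986), and the MeHg effect was larger in IFM than in VNC (interaction log2 0.95 ± 0.20, adjusted p 0.0136). dome, the receptor, had 64.4, 46.5 and 51.3 CPM in the MeHg libraries and 34.7, 42.8 and 35.8 CPM in the control libraries (log2 0.57 ± 0.14, adjusted p 0.0318). It also rose in pupal IFM, at 249.6, 193 and 248 CPM in MeHg and 145, 128 and 168 CPM in control libraries (log2 0.61 ± 0.14, adjusted p 0.0357), and no other gene of the list was called there. Stat92E, the transcription factor of the pathway, had 601, 572 and 532 CPM in MeHg adult IFM and 614, 680 and 790 CPM in control adult IFM, and was not called. The gut and tubule values given above move with Socs36E, dome and upd2 as well, and their part was not tested.

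**Figure D4:**
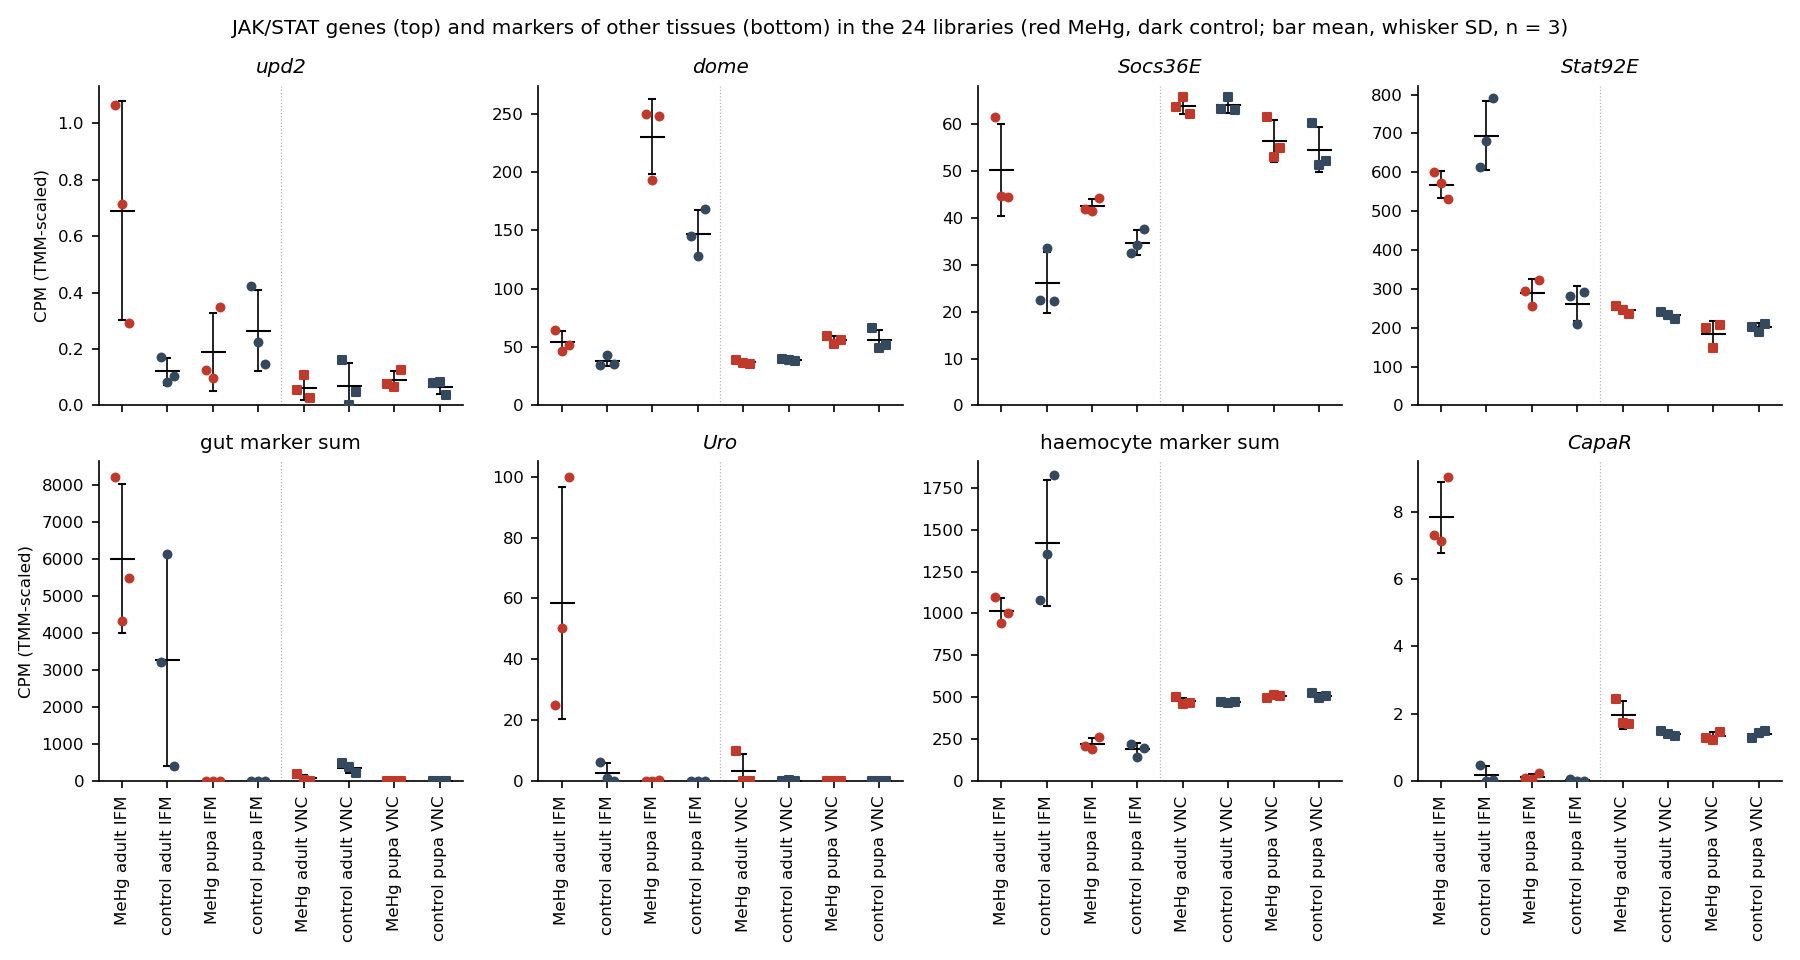
Levels in CPM (linear axes from 0) of the JAK/STAT genes upd2, dome, Socs36E and Stat92E in the top row, and in the bottom row the sum of 3 gut markers, Uro, the sum of 7 haemocyte markers and CapaR, in the 24 libraries, with bars for means and whiskers for SD of 3 libraries. upd2, dome and Socs36E of MeHg adult IFM lie above the control adult IFM points, as do Uro and CapaR.

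Of 10 genes of the Imd branch, which shares Tak1, 2 were called in adult IFM under MeHg, against 7.6% of all genes, with Rel, the Relish gene, higher (log2 0.48 ± 0.11, edgeR adjusted p 0.0306) and key, a subunit of its kinase, lower (log2 -0.42 ± 0.10, adjusted p 0.0348). Among 8 other ETS-family genes and regulators edl rose (log2 0.55 ± 0.14, adjusted p 0.0423), a regulator of the ETS factor Pointed, and of 7 kinases of the p38 and ERK branches edgeR called 0, with 1 at an unadjusted p under 0.05, and DESeq2 and limma voom called 1 each. In adult VNC under MeHg edgeR called 0 of the 18 output genes tested, with 4 at an unadjusted p under 0.05, while DESeq2 called 1 and limma voom 2.

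In control IFM the output list split between the stages, with 9 of 20 genes higher and 7 lower in adults, close to the 74.4% of all genes called and the 37.7% called higher. Xrp1 (log2 3.10 ± 0.10), Atf3, a stress-induced transcription factor (log2 4.75 ± 0.27), and NLaz, a lipocalin that JNK induces (log2 4.21 ± 0.25), were higher, and Mmp2, the second fly matrix metalloproteinase, was lower (log2 -2.21 ± 0.12), with edgeR adjusted p of 5.38e-10 to 5.34e-08. Atf3 rose to 354 ± 19.4 CPM in adults, against 13.4 ± 1.15 CPM in pupae. Of the 21 upstream genes 4 were higher and 11 lower in adults, against the same background. Among them were Tab2, the partner of Tak1, higher (log2 2.12 ± 0.11), and msn, a kinase above Hemipterous in dorsal closure, lower (log2 -1.90 ± 0.09). Between tissues in control adults, 13 of the 20 output genes were higher in IFM and 2 lower, where 35.0% of all genes were called higher.

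Of the 21 upstream genes 8 were higher and 10 lower in IFM than in VNC of control adults, where 73.0% of all genes were called and 35.0% were higher. The 4 with the smallest adjusted p were 3 lower and 1 higher. hiw, a ubiquitin ligase that restrains the kinase Wallenda, was lower in IFM than in VNC (log2 -5.46 ± 0.38, edgeR adjusted p 8.46e-11), as were Aplip1, a JNK scaffold of axonal transport (log2 -6.11 ± 0.25, adjusted p 2e-14), and Mkk4, the second JNK kinase kinase (log2 -1.48 ± 0.14, adjusted p 6.2e-09). Tab2 was higher, at mean levels of 65.0 CPM in IFM and 16.3 CPM in VNC (adjusted p 4.11e-11).

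The genes whose log2 levels followed the members most closely over the 24 libraries were found among 6127 genes. These Pearson correlations are a description, since the 24 libraries share tissue, stage, diet and depth. kay was nearest to Uqcc1 (r 0.995) and Fhos (0.993), and bsk to SPoCk (0.994) and nrv3 (0.992). Jra was nearest to Dlic and RNaseX25 (0.986 each), hep to Hers (0.981) and dnc (0.98), and puc to dsx and cnc (0.97 each). upd3 was nearest to baz (0.945) and RluA-1 (0.937), and egr to dve (0.926) and Rab4 (0.92). The lowest first-ranked values were those of Mmp1, nearest to w (0.857) and scb (0.822), and of Ets21C, nearest to CapaR (0.866) and NaPi-T (0.808). NaPi-T, a phosphate transporter gene, had 11.7, 10.3 and 18.5 CPM in MeHg adult IFM and 2.87, 0.709 and 0.281 CPM in control adult IFM, in the same order of groups as CapaR and Uro.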

How the data were processed

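The authors deposited whole-number counts per gene for each library, which were used as deposited. Per the submitters' processing notes, the tools included featureCounts of Subread 2.0.1, the aligner STAR 2.7.6a and bcl2fastq 2.19.0, with build dm6, and the strand setting of counting is not given in the sources used here. The labels describe a stranded total RNA kit. A deposited table of normalised values was not used.

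Symbols came through the locus tag from a RefSeq table of Release 6 (17504 of 17545 genes), and exonic lengths from merged exons of Ensembl gene models for that release (99.6% of genes). Members, lists and tests were chosen with earlier results of these data known. Counts were tested with edgeR 4.0.16 in R 4.3.3 (TMM scaling, filterByExpr, robust quasi-likelihood F test, Benjamini-Hochberg adjustment). MeHg and stage effects used the 12 libraries of a tissue, and tissue effects and tissue interactions all 24. Tests were checked on simulated counts. Alternatives were RLE scaling, no filter, DESeq2 1.42.0, limma 3.58.1 voom with sample weights, a replicate block, the title tag as a term, no rRNA or mitochondrial genes, length trend removed, other sets of libraries, and each replicate left out. CPM were computed with TMM factors over 24 libraries.

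Named genes were the 10 members, up to 4 called genes per list and comparison by adjusted p (of 14 lists holding 115 genes), and the 2 nearest genes by correlation; those of Tak1 are not reported here. Uro and Stat92E were chosen after their values were seen. Counting intervals cover counting error only.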

Additional observations from a re-analysis of the deposited data

Results flagged for a closer look

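The MeHg effect differed by test between the stages or tissues for 4 results. That of Tak1 was lower in adult than in pupal IFM (log2 difference -0.67). In adults the MeHg effect was lower in IFM than in VNC for Tak1 (-0.73), Jra (-0.70) and kay (-0.68).

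The difference between adults and pupae of the control diet was larger in IFM than in VNC for 6 genes, by the test of that difference: upd3 (log2 difference 5.31), Jra (1.90), Tak1 (1.38), puc (1.12), egr (1.10) and kay (0.62). The value of upd3 rests on 4 counts in pupal IFM and 7 in adult VNC of the control diet. upd3 passed the low-count filter only through adult IFM, where it is high, so its call is not read as support.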

How the results depend on the processing

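Over 62 results of single genes, 1059 values under alternative settings were computed, of which 976 kept their direction and their side of the threshold, 46 lost the call, 34 gained one and 3 turned round. The 3 came from removing the length trend in the comparison of IFM with VNC: Mmp1 in pupae (0.35), Ets21C in adults (0.28) and hep in adults (0.37).

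The number of the 10 genes called for MeHg in adult IFM was 2 with the title tag as a term. In pupal IFM DESeq2 called 1, and in adult VNC DESeq2, voom and the 6 libraries alone called 1 each. Stage in VNC gave 3 with the title tag. No tag was shared by pupal and adult libraries, so this term was fitted within each stage. Stage and tag cannot be told apart. The MeHg by stage interaction in IFM gave 3 with DESeq2, 2 with voom, 2 without the length trend, 4 with all 24 libraries and 0 with the title tag, and in VNC DESeq2 gave 1. The adult MeHg by tissue interaction gave 5 with DESeq2 and 5 with voom. The causes were not tested.

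Leaving out 1 library in turn gave 3 to 5 called genes for MeHg in adult IFM, 0 to 0 in the other MeHg comparisons, 8 to 9 and 4 to 5 for stage in IFM and VNC, 7 to 8 for tissue at each stage, 0 to 2 and 1 to 4 for the MeHg by stage interaction in IFM and the MeHg by tissue interaction in adults, 0 to 0 for the other MeHg interactions, and 6 to 7 for stage by tissue.

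Same-numbered replicates did not pair the MeHg and control libraries of IFM: their deviations correlated at -0.289, 0.054 and -0.0742 in pupae and at -0.266 and 0.188 in adults. In VNC they correlated at -0.112, -0.0515 and -0.0167 in pupae and at 0.345 and 0.342 in adults, where the groups share only 2 numbers. Between IFM and VNC the values were 0.071, 0.191 and -0.196 in control pupae and -0.294, -0.167 and 0.176 in control adults. MeHg adults gave 0.241, 0.082 and 0.115 and MeHg pupae 0.202, 0.117 and 0.322, so same numbers tended to go together in both MeHg groups. MeHg pupae enter the pupal MeHg by tissue interaction, in which 0 genes were called with or without the block. MeHg adults enter the adult one, in which Tak1, Jra and kay stayed called with the block. With the replicate block, 2 of the 10 genes were called for MeHg in adult IFM (Mmp1 had an adjusted p of 0.0549 and kay of 0.0658) and 0 for the MeHg by stage interaction in IFM. The block also ended the stage call of puc in VNC and gave one to Mmp1 between tissues in control pupae. Depth limits upd3 and upd2, with 0 to 9 counts per library outside adult IFM for upd3.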
